A study of Mus musculus with 14 samples.

Results

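The 9 genes described here mark the CA2 and CA3 fields of the hippocampus. Amigo2, Rgs14 and Pcp4 were taken as CA2 markers and Homer3, Cpne4, Prss35, Bok, Iyd and Socs2 as CA3 markers. They were found by gene name among the 26570 genes of a table of untrained mice and the 25933 genes of a table of a learning experiment. All 9 genes were present in both tables and all 9 passed the filter on low counts in both. The RNA-seq libraries came from the dorsal hippocampus of male C57BL6 mice aged 8 months, in 6 groups.

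WT mice were compared with THY-Tau22 mice, which are heterozygous for a transgene of human Tau carrying G272V and P301S. The transgene is driven by the Thy1.2 promoter, which restricts it to neurons. The untrained experiment held 3 WT and 2 THY-Tau22 libraries from mice left in their home cage, for which the labels give no treatment. The learning experiment held 3 libraries of untrained home-cage WT mice (WT VEH_HC) and 2 of trained WT mice (WT VEH), all given saline. It also held 2 libraries of trained THY-Tau22 mice given CSP, the carbon nanosphere carrier alone (TAU VEH), and 2 of trained THY-Tau22 mice given CSP-TTK21, the carrier loaded with an activator of the histone acetyltransferases CBP and p300 (TAU MOL). Mice received 3 injections. Training in the Morris water maze, which tests spatial memory, lasted 3 days, and tissue was taken 1 h after the last trial. WT mice thus received saline and THY-Tau22 mice nanospheres, so that genotype and carrier cannot be told apart in the learning experiment. The study left 3 of 12 learning libraries out after seeing the data. The labels number the replicates without naming animals, so that p-values measure the spread between these libraries.

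The hippocampus sends information from the dentate gyrus to CA3, and from CA3 to CA1, with CA2 lying between CA3 and CA1. CA3 pyramidal neurons receive the mossy fibres of the dentate gyrus and excite each other through recurrent collaterals, a circuit tied to the rapid storage of spatial memories. CA2 pyramidal neurons resist some forms of synaptic plasticity and are needed for social memory. The genes used here are enriched in these neurons without being exclusive to them. In tissue extracts, fewer cells of a field and less RNA per cell cannot be told apart.

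Of the CA2 markers, Amigo2 encodes a cell adhesion protein with leucine-rich repeats, Rgs14 a regulator of G protein signalling that restrains plasticity in CA2, and Pcp4 a small peptide that binds calmodulin. Of the CA3 markers, Homer3 encodes a scaffold protein of the postsynaptic density and Cpne4 a copine, a calcium-dependent phospholipid-binding protein. Prss35 encodes a serine protease-like protein, Bok a member of the BCL-2 family of apoptosis regulators, Iyd the enzyme that recovers iodide from iodotyrosines, and Socs2 a suppressor of cytokine signalling.

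In mm9, the build of the deposited tables, the CA2 genes lie at chr15:97074505-97077718 (Amigo2, minus strand), chr13:55471093-55486048 (Rgs14, plus strand) and chr16:96689213-96747400 (Pcp4, plus strand). Homer3 lies at chr8:72806726-72818260, Cpne4 at chr9:104449616-104936874, Prss35 at chr9:86636434-86650680 and Bok at chr1:95582271-95592339, all on the plus strand. Iyd lies at chr10:6791664-6806301 and Socs2 at chr10:94847996-94879814, both on the minus strand. The exons of Homer3 share 874 bases with those of Ddx49 on the opposite strand, the exons of Pcp4 share 243 bases with Igsf5 on the same strand, and those of Amigo2 share 58 bases with Fam113b. The library kit does not mark the strand, so that reads from these shared stretches cannot be assigned by strand. Ddx49 measured 14.2 to 16.9 CPM (counts relative to the scaled library total) in the learning libraries and Igsf5 at most 0.291 CPM, beside the levels of Homer3 and Pcp4 given below.

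The 250 bases before the transcription start are shown for the 5 CA3 genes with an entry in the copy of RefSeq promoters used here. The CA3 genes were chosen because they lay lower together in TAU MOL. Amigo2, the gene that rose with training, is shown too. Sequences are from RefSeq on GRCm38.p6, written 5′ to 3′ on the strand of the gene. They lie at chr8:70282749-70282998 (Homer3), chr9:104569405-104569654 (the first of 2 Cpne4 starts), chr1:93685325-93685574 (Bok), chr9:86743383-86743632 (Prss35), chr10:3540024-3540273 (Iyd) and chr15:97247288-97247537 (Amigo2, minus strand). Iyd is on the plus strand in this build, unlike in mm9. Capitals mark the GC box GGGCGG, the cAMP response element core TGACG and the TATA box TATAAA on either strand.
Homer3: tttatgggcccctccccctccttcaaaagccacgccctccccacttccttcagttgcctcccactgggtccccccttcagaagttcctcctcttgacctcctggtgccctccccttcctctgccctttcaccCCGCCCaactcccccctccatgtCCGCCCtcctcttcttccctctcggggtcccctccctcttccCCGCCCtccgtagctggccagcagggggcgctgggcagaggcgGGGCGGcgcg
Cpne4: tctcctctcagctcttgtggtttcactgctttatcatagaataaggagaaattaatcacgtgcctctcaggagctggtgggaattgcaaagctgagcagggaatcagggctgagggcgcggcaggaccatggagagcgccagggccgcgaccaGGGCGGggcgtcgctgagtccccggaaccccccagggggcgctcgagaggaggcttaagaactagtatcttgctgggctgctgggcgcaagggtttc
Bok: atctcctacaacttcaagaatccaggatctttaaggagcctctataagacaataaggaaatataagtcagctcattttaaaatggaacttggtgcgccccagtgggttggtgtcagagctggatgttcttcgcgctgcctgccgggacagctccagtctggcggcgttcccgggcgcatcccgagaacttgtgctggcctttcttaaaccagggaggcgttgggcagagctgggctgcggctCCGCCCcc
Prss35: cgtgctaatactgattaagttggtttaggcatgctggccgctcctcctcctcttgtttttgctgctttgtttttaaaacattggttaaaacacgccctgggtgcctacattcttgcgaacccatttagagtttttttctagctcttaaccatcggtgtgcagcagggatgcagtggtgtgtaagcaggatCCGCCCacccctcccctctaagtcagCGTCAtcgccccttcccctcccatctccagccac
Iyd: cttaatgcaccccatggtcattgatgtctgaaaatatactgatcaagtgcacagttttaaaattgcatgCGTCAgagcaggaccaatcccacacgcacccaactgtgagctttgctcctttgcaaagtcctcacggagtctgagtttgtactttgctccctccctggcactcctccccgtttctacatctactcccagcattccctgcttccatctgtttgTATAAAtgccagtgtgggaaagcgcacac
Amigo2: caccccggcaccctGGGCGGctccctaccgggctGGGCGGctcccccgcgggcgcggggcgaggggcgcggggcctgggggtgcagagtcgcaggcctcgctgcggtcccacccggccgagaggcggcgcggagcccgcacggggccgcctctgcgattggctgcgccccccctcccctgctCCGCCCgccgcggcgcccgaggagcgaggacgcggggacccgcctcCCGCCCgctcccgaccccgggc

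The cAMP response element is the DNA motif of CREB, a transcription factor that recruits CBP. Its full form TGACGTCA, of which TGACG is a part, was in none of the 8 windows of the 7 marker genes with an entry, and in 1.55% of the 32851 windows of this length in the reference. TGACG was found before Prss35 and Iyd, and in 17.8% of all windows. The GC box was found in 5 of the 8 windows, against 32.7% of all windows, with 4 copies each before Homer3 and Amigo2 and 1 each before Bok, Cpne4 and Prss35. A TATA box was found before Iyd and in 12.4% of all windows. The copy of RefSeq promoters used here held no entry for Rgs14 and Socs2. A match describes these letters alone and is no evidence that a factor binds there.

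Library totals ran from 28639121 to 37681155 counts in the untrained experiment and from 24693713 to 52180305 in the learning experiment. The 9 genes were well covered, from 108 counts (Iyd in TAU VEH replicate 2) to 9471 (Bok in untrained WT replicate 1). Markers of all hippocampal fields were detected in every library. Markers of neighbouring tissue were detected too and differed between groups. The summed level of 12 choroid plexus markers was 1574 to 2421 CPM in WT VEH, against 78.7 to 235.7 in WT VEH_HC, 239 to 284 in TAU VEH and 708 to 775 in TAU MOL, and it reached 1313 in an untrained library (THY-Tau22 replicate 2). That of 8 thalamic markers ranged from 115 to 324 CPM over the untrained libraries and from 106 to 144 over the learning libraries. None of these markers was at 0 in any library. The part of such tissue differences in the results below was not tested.

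Per base of exon, in RPKM (CPM divided by exon length in kilobases), the 9 genes covered a wide range of levels and kept nearly the same order in all 6 groups. Bok was highest in every group, at 118 ± 5.70 RPKM (SD, n = 2) in WT VEH. Rgs14 and Pcp4 followed, at 75.4 ± 2.52 and 49.6 ± 2.81 RPKM in WT VEH, then Cpne4 at 22.6 ± 1.58, Homer3 at 19.0 ± 1.69 and Amigo2 at 9.40 ± 0.322. Iyd (2.55 ± 0.166 RPKM), Prss35 (2.16 ± 0.451) and Socs2 (1.10 ± 0.217) were the lowest. The ranges of Iyd and Prss35 overlapped in all 4 learning groups, those of Pcp4 and Rgs14 in TAU MOL, and those of Bok and Pcp4 in untrained WT. All other neighbours in the order had ranges that did not overlap within a group. Pcp4 ranked above Rgs14 in both untrained groups, where it measured 111 ± 11.9 RPKM in WT (n = 3), and below it in the learning groups other than TAU MOL. The 2 tables were normalized separately, so this difference in level was not tested. Among other CA3 markers, Spock1, a brain proteoglycan, had the highest level at 72.2 RPKM in WT VEH, and among other CA2 markers Necab2, a neuronal calcium-binding protein, at 51.1 RPKM.

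**Figure D1:**
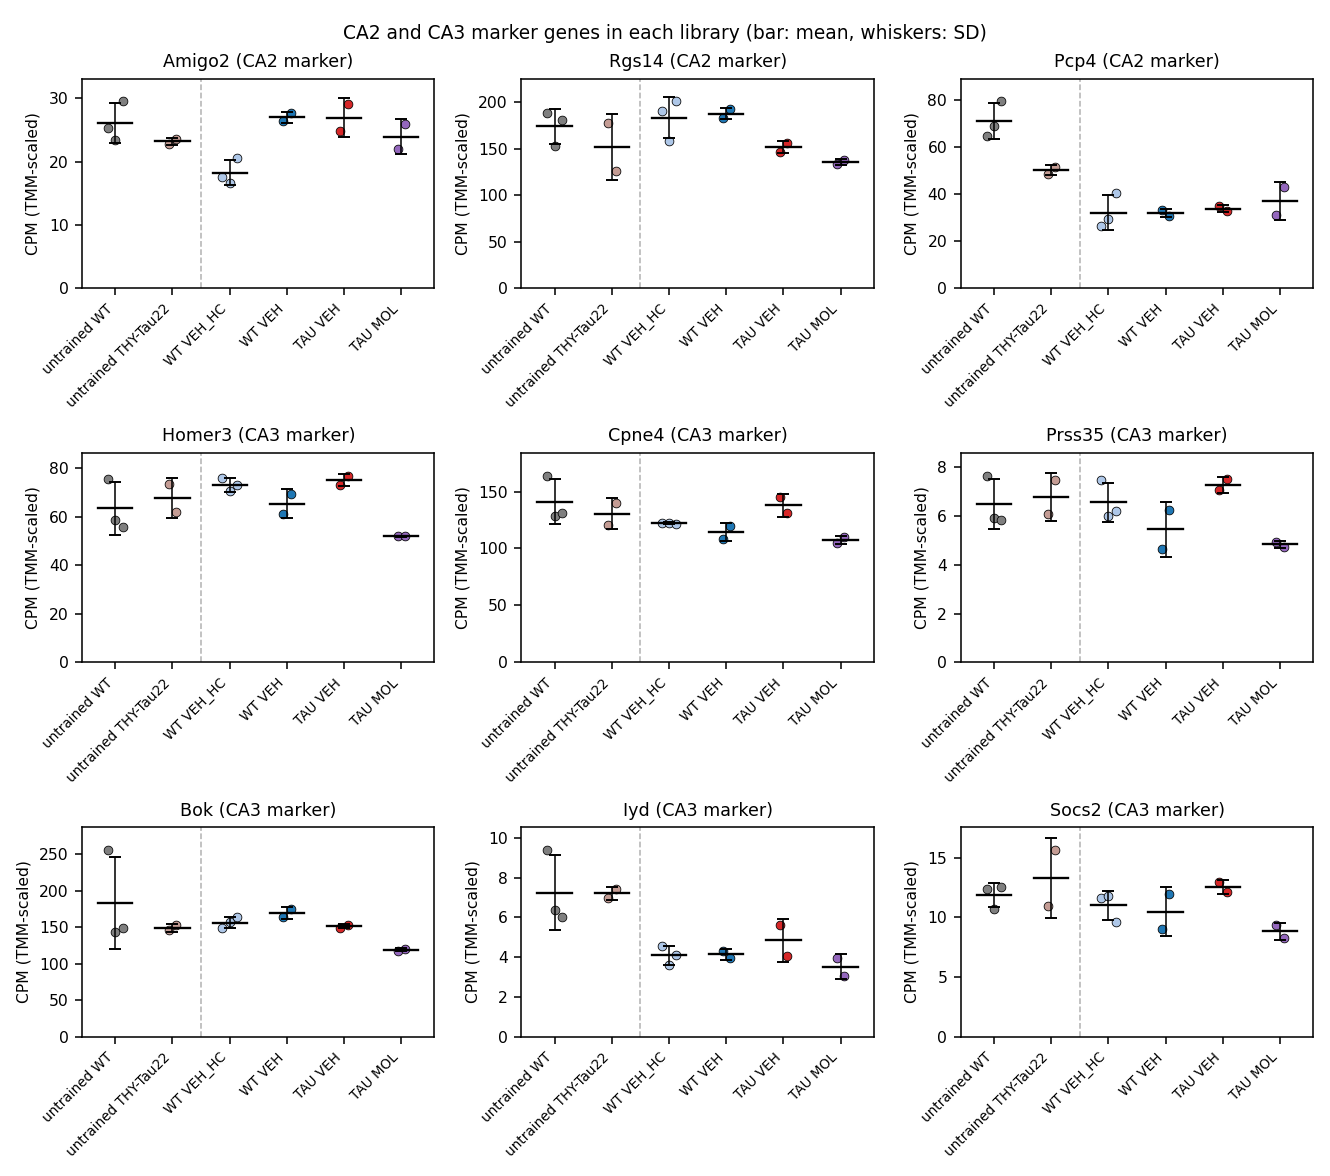
Level of each of the 9 genes (vertical axis, CPM with TMM scaling, starting at 0) in every library of the 6 groups (horizontal axis). Points are libraries, bars means and whiskers SD, and the dashed line separates the untrained from the learning experiment, which were scaled separately. The 2 TAU MOL libraries lay below both TAU VEH libraries for all 6 CA3 genes.

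The first comparison asked whether the transgene altered these genes in untrained mice. None of the 9 genes was differentially expressed between untrained THY-Tau22 and WT mice by edgeR's quasi-likelihood test (adjusted p under 0.05 and absolute log2 fold change above 0.2), against 0.0245% of the 16324 genes tested. DESeq2 likewise called none, against 0.245% of all genes. With edgeR 1 gene, Pcp4, had an unadjusted p under 0.05, a level reached by 4.92% of all genes. Pcp4 measured 64.4, 68.9 and 79.3 CPM in the 3 WT libraries and 48.5 and 51.5 in the 2 THY-Tau22 libraries, so that the groups did not overlap, as for 9.49% of all genes in this direction. Its log2 fold change was -0.50 ± 0.13 (SE, 95% interval -0.78 to -0.22), with an adjusted p of 0.660 by edgeR. The WT library with the most Pcp4, replicate 3, also had the most thalamic marker RNA, 324 CPM against 133 and 230 in the other WT libraries and 115 and 171 in the THY-Tau22 libraries. Of the other marker lists, edgeR called no gene here and DESeq2 called 1 choroid plexus and 1 astrocyte marker higher in THY-Tau22. Whether such tissue has a part in the Pcp4 values was not tested.

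The other CA2 genes overlapped between the genotypes, with log2 fold changes of -0.17 for Amigo2 and -0.20 for Rgs14. Rgs14 varied widely between the THY-Tau22 libraries, at 177 and 126 CPM, and measured 188, 153 and 181 in WT. These 2 THY-Tau22 libraries also had opposite correlations between GC content and level, given below. After correction for GC content and gene length, the log2 fold change of Rgs14 was -0.13. The part of base composition in its spread was not tested. The 6 CA3 genes had log2 fold changes between -0.29 and 0.16, of which 3 were positive and 3 negative, beside a median of -0.01 over all genes. Bok stood out for 1 library. It measured 256 CPM in WT replicate 1 but 144 and 149 in the other WT libraries and 145 and 153 in the THY-Tau22 libraries. Without that library its log2 fold change was 0.04, against -0.29 with it. The same library had the highest oligodendrocyte marker sum of the untrained libraries, 9191 CPM against 5151 to 7830 in the others. Its values were the highest of the 5 libraries for Cpne4 (164 CPM against 121 to 140.1), Homer3 (75.8 against 55.9 to 73.7), Prss35 (7.65 against 5.84 to 7.47) and Iyd (9.40 against at most 7.44) as well, but not for Socs2 (12.4 against 10.7 to 15.7). None of the 12 other CA2 and 12 other CA3 markers was differentially expressed, with median log2 fold changes of -0.20 and 0.04.

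Amigo2 rose with training of WT mice. It measured 17.6, 16.7 and 20.5 CPM in the 3 home-cage WT VEH_HC libraries and 26.3 and 27.7 in the 2 trained WT VEH libraries. The groups did not overlap, as for 23% of all genes in this direction, and Amigo2 was 1.48-fold higher after training (log2 fold change 0.56 ± 0.11, 95% interval 0.33 to 0.80, adjusted p = 0.0142 by edgeR). It was the only one of the 9 genes to be differentially expressed, in a comparison in which 8.4% of 16820 genes were (5.35% higher and 3.05% lower). The adjusted p was 0.148 without WT VEH replicate 1 and 0.0830 without replicate 2, and ran up to 0.148 over all alternatives. Amigo2 in trained THY-Tau22 mice was near that of trained WT mice, at 24.8 and 29.1 CPM (TAU VEH) and 22.0 and 25.9 CPM (TAU MOL). All 6 trained libraries lay above the 3 WT VEH_HC libraries of the same experiment. The libraries of the untrained experiment did not share the low level of WT VEH_HC. Amigo2 measured 25.3, 23.4 and 29.5 CPM in untrained WT and 22.8 and 23.6 in untrained THY-Tau22. The 2 experiments were scaled separately, so this difference in level was not tested. Fam113b, whose exons touch those of Amigo2, had the opposite sign with training (log2 fold change -0.42, adjusted p = 0.0479 by edgeR).

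The other CA2 markers did not follow Amigo2. Rgs14 measured 190.2, 158 and 201 CPM in WT VEH_HC and 183 and 192 in WT VEH. Pcp4 measured 26.4, 29.4 and 40.4 CPM in WT VEH_HC and 33.1 and 30.5 in WT VEH. Their log2 fold changes were 0.04 (95% interval -0.16 to 0.23) and -0.01 (-0.37 to 0.35). Of the 12 other CA2 markers 1 was differentially expressed, Actn2, a cytoskeletal actinin, which fell (log2 fold change -0.46, adjusted p = 0.0380).

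None of the CA3 genes was differentially expressed with training, and 1 had an unadjusted p under 0.05, against 27.8% of all genes. Homer3 measured 76.0, 70.4 and 73.1 CPM in the home cage and 61.3 and 69.6 after training (log2 fold change -0.16 ± 0.07, adjusted p = 0.162 by edgeR). Cpne4 was likewise lower in both trained libraries, at 109 and 119.9 CPM against 121 to 123, and Bok higher, at 164 and 175 against 149 to 163. In the whole table, 23% of genes were higher in every trained library and 20.8% lower. Of the 12 other CA3 markers, Grik4, a kainate receptor subunit, fell with training (log2 fold change -0.47, adjusted p = 0.0364). DESeq2 also called Spock1 lower (adjusted p = 0.0479, against 0.103 by edgeR). The median of this list was -0.26 and that of the 6 CA3 genes -0.09, beside 0.00 over all genes. All 12 choroid plexus markers rose in this comparison. Of the other lists, 2 of 5 interneuron, 1 of 8 CA1 and 1 of 4 microglial markers rose, and 2 of 8 dentate gyrus markers fell (summed level 452 to 479 CPM after training against 487 to 668 in the home cage). DESeq2 called 2 of 4 astrocyte markers higher as well, and 3 of the 8 dentate gyrus markers lower. The part of these lists in the values of Amigo2 and the other genes was not tested.

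**Figure D2:**
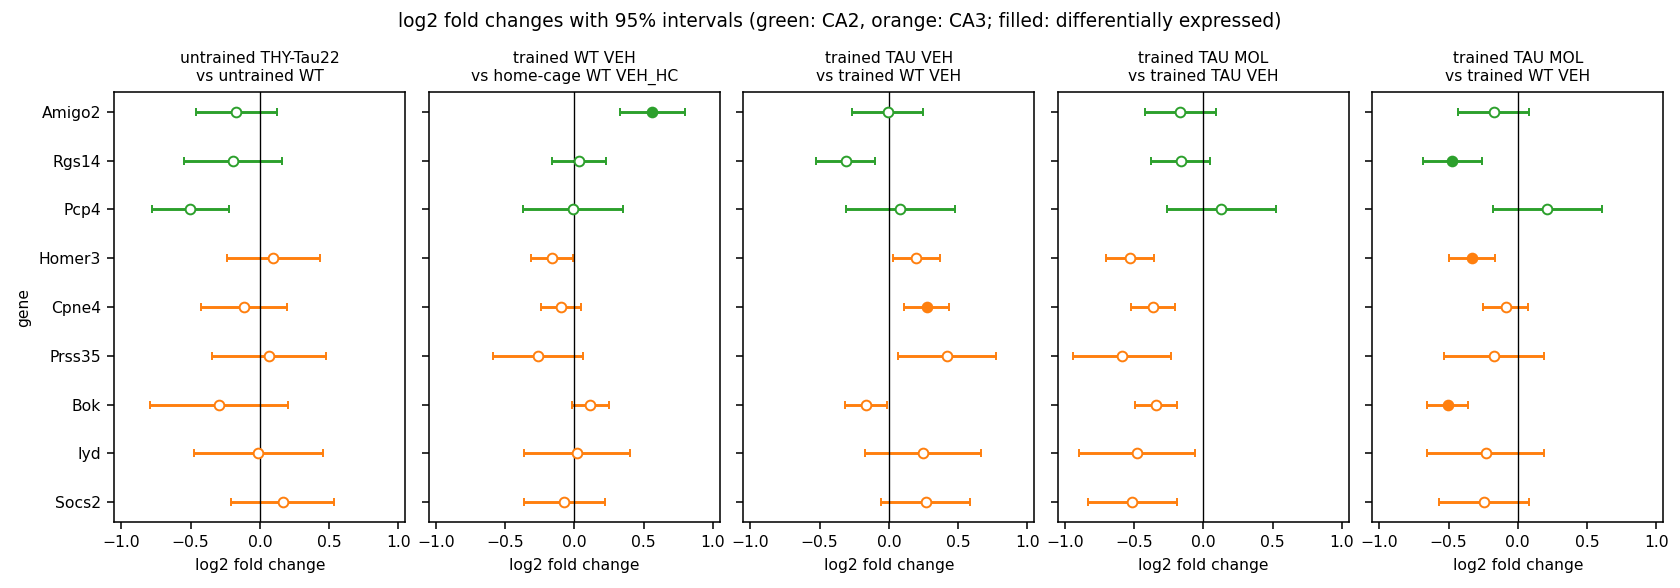
log2 fold change (horizontal axis) of each of the 9 genes (vertical axis) in 5 comparisons, with 95% intervals from edgeR as whiskers. Green marks CA2 and orange CA3 genes, and filled points are differentially expressed: Amigo2 with training, Cpne4 in TAU VEH against WT VEH, and Rgs14, Homer3 and Bok in TAU MOL against WT VEH. The intervals of all 6 CA3 genes lie below 0 in TAU MOL against TAU VEH, where no gene passed the adjusted threshold with edgeR.

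The genotypes were next compared after training. Cpne4 rose in TAU VEH and was the only one of the 9 genes that passed the test, beside 14.4% of all genes (3.61% higher and 10.8% lower). It measured 109 and 119.9 CPM in WT VEH and 145 and 131 in TAU VEH, a 1.21-fold difference (log2 fold change 0.27 ± 0.07, 95% interval 0.11 to 0.44, adjusted p = 0.0284 by edgeR). Leaving out WT VEH replicate 1 gave an adjusted p of 0.192 and leaving out TAU VEH replicate 1 gave 0.268. Both TAU VEH libraries were also above the WT VEH libraries for Homer3, Prss35 and Socs2, so that 4 of the 6 CA3 genes were separated upward and 1, Bok, downward, against 28.5% and 29.4% of all genes.

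Homer3 measured 73.3 and 76.99 CPM in TAU VEH (log2 fold change 0.20, adjusted p = 0.118). Prss35 measured 4.64 and 6.25 CPM in WT VEH and 7.05 and 7.51 in TAU VEH (0.42, adjusted p = 0.118). Socs2 measured 9.02 and 11.9 CPM in WT VEH and 13.0 and 12.2 in TAU VEH (0.27, adjusted p = 0.283). These genes therefore did not pass the threshold although their groups were separate. Iyd overlapped, at 4.33 and 3.95 CPM against 5.61 and 4.08. Bok measured 164 and 175 CPM in WT VEH and 149 and 153 in TAU VEH (log2 fold change -0.16, adjusted p = 0.147).

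Rgs14 was the CA2 gene whose libraries did not overlap between the trained genotypes. It measured 183 and 192 CPM in WT VEH and 147 and 156 in TAU VEH (log2 fold change -0.31 ± 0.10, adjusted p = 0.0543). DESeq2 called it lower, with 10.3% of all genes (adjusted p = 0.0217), and its adjusted p ran from 0.00318 to 0.749 over the alternatives. Amigo2 and Pcp4 overlapped between the groups and had log2 fold changes of -0.01 (95% interval -0.27 to 0.25) and 0.08 (-0.31 to 0.48).

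The base composition of genes moved with genotype in the learning libraries. Spearman's correlation across genes between GC content and level relative to the mean of all libraries was 0.0848 to 0.455 in the 5 WT libraries and -0.617 to -0.396 in the 4 THY-Tau22 libraries (16780 genes, which are not independent). In the untrained experiment it did not follow genotype. It was 0.0670 to 0.323 in the WT libraries, and 0.481 and -0.600 in the THY-Tau22 libraries (16293 genes). Bok, Homer3 and Rgs14 are rich in GC (60.9%, 57.9% and 57.8% of exon bases, against a median of 50.0% over the genes tested), and Cpne4 is poor in it (45.7%). After correction of each library for GC content and gene length, the log2 fold change of Bok in TAU VEH against WT VEH went from -0.16 to 0.13, and that of Rgs14 from -0.31 to -0.08, beside 0.10 for Pcp4 and -0.00 for Amigo2. That of Homer3 went from 0.20 to 0.47 (adjusted p = 0.0139), and that of Cpne4 from 0.27 to 0.15 (adjusted p = 0.346). Thus all 6 CA3 genes were positive after the correction, with Homer3 in place of Cpne4 passing the threshold. Over all genes 444 of 16820 were then called (78 higher and 366 lower), against 2423 before the correction. Scaling by library size alone raised the median of all genes by 0.15 in this comparison, so that 2578 genes were called higher and 1020 lower, against 608 and 1815 with TMM, and Homer3, Cpne4 and Prss35 were called higher. Relative to that shift, the log2 fold change of Homer3 under library size (0.35) was close to the value of 0.20 with TMM.

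**Figure D3:**
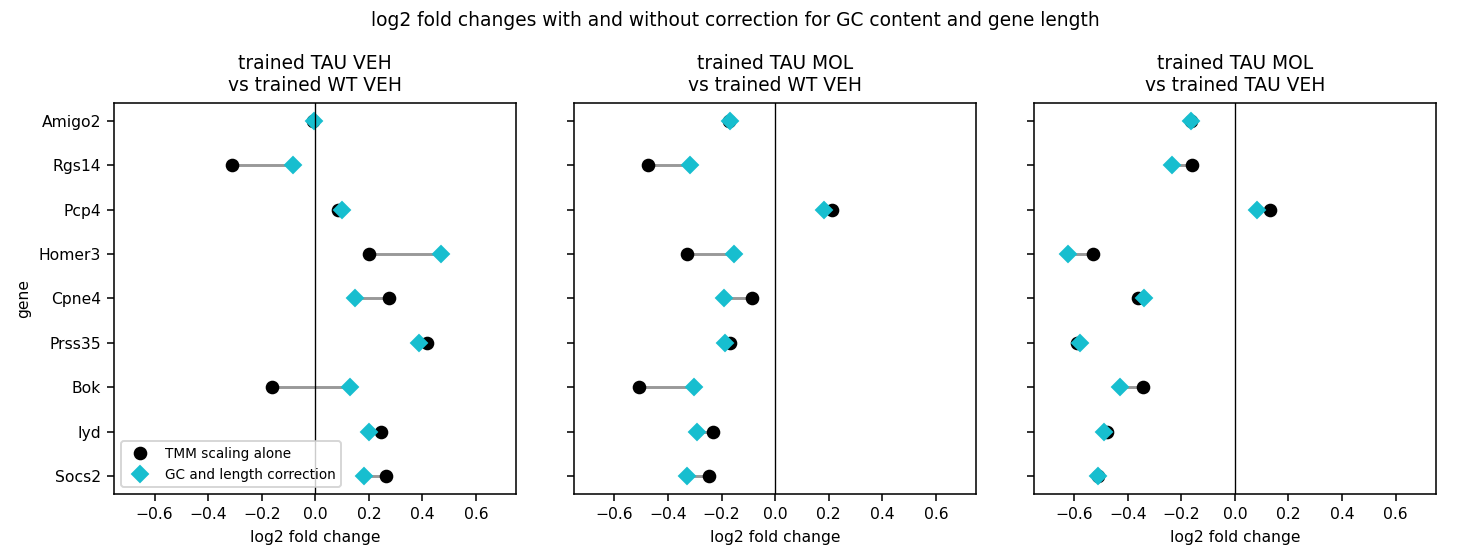
log2 fold changes (horizontal axis) of the 9 genes (vertical axis) with TMM scaling alone (black circles) and after correction of each library for GC content and gene length (cyan diamonds) in 3 comparisons of trained mice. Bok, Homer3 and Rgs14, the GC-rich genes, move to the right in both comparisons with WT VEH, and the 6 CA3 genes stay below 0 in TAU MOL against TAU VEH.

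Markers of the other fields were described beside these genes. All 8 CA1 markers had negative log2 fold changes in TAU VEH against WT VEH (median -0.67, beside 0.00 over all genes), and Wfs1, Fibcd1, Mpped1 and Nov were among those that fell. The summed level of the 8 CA1 markers was 1201 and 1127 CPM in WT VEH and 676 and 725 in TAU VEH. That of the 6 CA3 genes was 352 and 387 CPM in WT VEH and 393 and 385 in TAU VEH. The ratio of CA3 to CA1 sums was therefore 0.293 and 0.343 after training of WT mice and 0.307, 0.411 and 0.346 in the home-cage libraries. It was 0.582 and 0.531 in TAU VEH, where both libraries were above all 5 WT libraries. The sum of the 3 CA2 genes was 206 and 218 CPM in TAU VEH, lower than 243 and 250 in WT VEH, and was 204 to 262 in WT VEH_HC. Its ratio to the CA1 sum was nevertheless separated upward, at 0.305 and 0.2999 in TAU VEH against 0.194 to 0.240 in the 5 WT libraries. The ratio of CA3 sums to the 8 dentate gyrus markers showed no such separation, at 0.777 and 0.808 in WT VEH and 0.770 and 0.791 in TAU VEH. In untrained mice the ratio of CA3 to CA1 sums overlapped between the genotypes, from 0.457 to 0.859 in WT and 0.430 to 0.607 in THY-Tau22, and that of CA2 to CA1 was lower in THY-Tau22, at 0.294 and 0.317 against 0.365 to 0.455. These ratios are a description, with no test. Other lists moved in TAU VEH against WT VEH too. All 12 choroid plexus markers fell, as did 2 of 5 neocortical markers (summed level 97.3 to 109.8 CPM in TAU VEH against 133 to 134 in WT VEH). Of 4 astrocyte markers 2 rose (summed level 1006 to 1120 CPM against 735 to 794). All 4 subicular and all 4 endothelial markers had negative log2 fold changes (medians -0.37 and -0.38), none of them called by edgeR and 1 endothelial marker called lower by DESeq2. In the remaining lists 1 of 5 interneuron markers fell (2 by DESeq2) and 1 of 8 dentate gyrus markers rose (3 by DESeq2). Of 8 thalamic markers 1 rose and 1 fell. The part of these lists in the values of the CA2 and CA3 genes was not tested. Among the 12 other CA3 markers, Pvrl3, a nectin adhesion protein, and St18, a zinc finger transcription factor, rose in TAU VEH (log2 fold changes 0.33 and 0.51, adjusted p = 0.0251 and 0.00353), and the list had a median of 0.09. None of the 12 other CA2 markers was differentially expressed.

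The effect of CSP-TTK21 was addressed by comparing TAU MOL with TAU VEH. All 6 CA3 genes were lower in both TAU MOL libraries than in both TAU VEH libraries, a separation that 17.4% of all genes showed in this direction. Homer3 measured 73.3 and 76.99 CPM in TAU VEH against 52.2 and 51.9 in TAU MOL. Cpne4 measured 145 and 131 CPM in TAU VEH against 105 and 109.7 in TAU MOL. Bok measured 149 and 153 CPM in TAU VEH against 118 and 121 in TAU MOL. In these 3 abundant CA3 genes the distance between the groups was larger than that between the libraries of either group.

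The same held for 2 of the 3 scarce ones. Prss35 measured 7.05 and 7.51 CPM in TAU VEH against 4.92 and 4.74 in TAU MOL. Socs2 measured 13.0 and 12.2 CPM in TAU VEH against 9.33 and 8.30 in TAU MOL. Iyd measured 5.61 and 4.08 CPM in TAU VEH against 3.96 and 3.07 in TAU MOL, a gap between the groups smaller than the spread within either of them. Both TAU MOL libraries were also below or within the range of the trained WT mice for every CA3 gene.

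No gene passed the adjusted threshold with edgeR in this comparison (0% of 16820), the 9 genes included. Unadjusted p was under 0.05 for all 6 CA3 genes and none of the CA2 genes, beside 6.33% of all genes. DESeq2 called 3 of the CA3 genes lower, beside 0.137% of all genes in this direction. These were Homer3 (log2 fold change -0.53 ± 0.08 by edgeR, 95% interval -0.70 to -0.36, adjusted p = 2.57e-05 by DESeq2 and 0.213 by edgeR), Cpne4 (-0.36 ± 0.07, adjusted p = 0.00697 and 0.254) and Bok (-0.34 ± 0.07, adjusted p = 0.00697 and 0.254). Homer3 and, among the other CA3 markers, Grik4 are genes that the study itself picked out in these libraries, so that their direction is no independent evidence. All members and lists were chosen with earlier results of these data known. The shared direction of the 6 CA3 genes is therefore no independent evidence either. The adjusted p of Homer3 ran from 1.37e-06 to 0.9999 over the alternatives. Prss35, Iyd and Socs2 had log2 fold changes of -0.59 ± 0.16, -0.48 ± 0.19 and -0.51 ± 0.15, and adjusted p of 0.414, 0.744 and 0.449 by edgeR. The GC correction left all 6 negative, between -0.34 and -0.62, and no leave-one-out fit turned a sign.

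**Figure D4:**
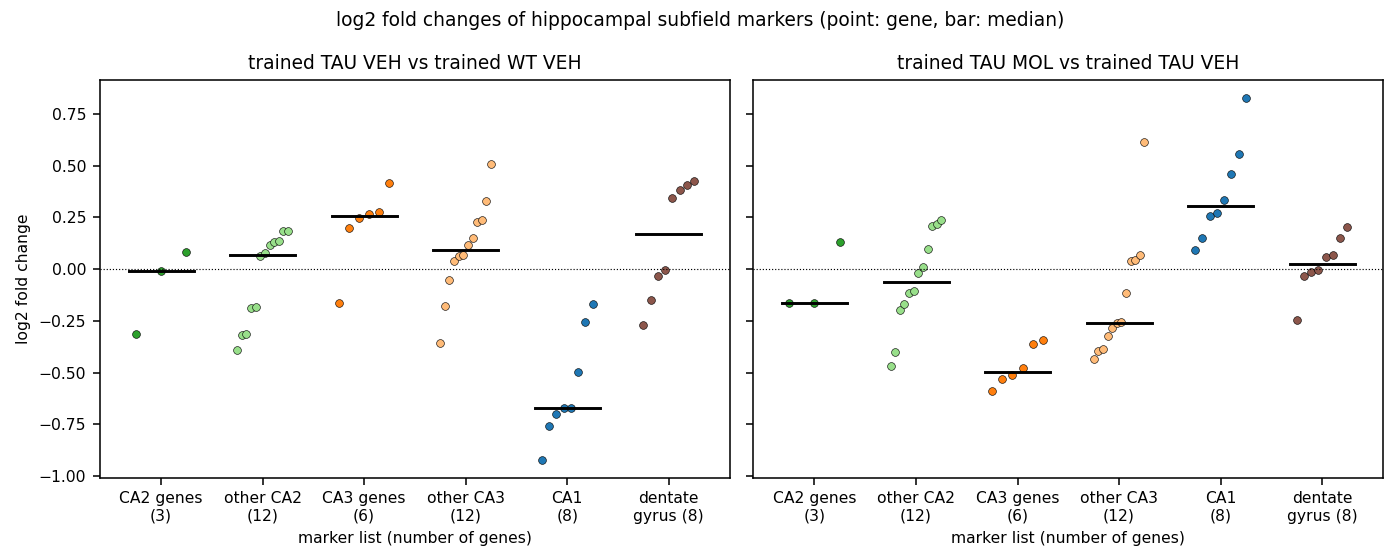
log2 fold changes (vertical axis) of the genes of 6 marker lists (horizontal axis, with the number of genes) in TAU VEH against WT VEH (left) and TAU MOL against TAU VEH (right). Points are genes and bars medians. In the right panel the 6 CA3 genes lie between -0.59 and -0.34 and the 8 CA1 markers between 0.09 and 0.83, while in the left panel the CA1 markers lie below 0.

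The CA2 genes showed no such common direction between TAU MOL and TAU VEH. Rgs14 was lower in both TAU MOL libraries, at 133 and 137 CPM against 147 and 156 (log2 fold change -0.16, 95% interval -0.38 to 0.05). Amigo2 overlapped, at 22.0 and 25.9 CPM against 24.8 and 29.1 (-0.17, 95% interval -0.42 to 0.09). Pcp4 overlapped too, at 31.2 and 42.7 CPM against 34.8 and 32.6 (0.13, 95% interval -0.26 to 0.52). The medians were -0.49 for the 6 CA3 genes, -0.16 for the 3 CA2 genes, -0.26 for the 12 other CA3 markers and -0.06 for the 12 other CA2 markers, beside 0.01 over all genes. Of the 12 other CA3 markers 8 were negative, 7 of them without overlap, and DESeq2 called Pvrl3 lower (adjusted p = 0.0499, against 0.254 by edgeR). Coch, which encodes the extracellular matrix protein cochlin, had the largest value in the opposite direction (log2 fold change 0.61, adjusted p = 0.758). It was chosen for mention after its value was seen.

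All 8 CA1 markers had positive log2 fold changes in TAU MOL against TAU VEH (median 0.30), and DESeq2 called Mpped1 higher (adjusted p = 0.000472, against 0.213 by edgeR). The sum of the 8 CA1 markers was 972 and 959.6 CPM in TAU MOL, above both TAU VEH libraries and below both WT VEH libraries, and that of the 6 CA3 genes was 293 and 298, below all other learning libraries. The ratio of CA3 to CA1 sums in TAU MOL was 0.302 and 0.311, against 0.582 and 0.531 in TAU VEH. That of CA2 to CA1 sums was 0.191 and 0.215, likewise below both TAU VEH libraries. Without Bok, the most abundant CA3 gene, the ratio was 0.181 and 0.185 in TAU MOL, 0.361 and 0.319 in TAU VEH and 0.156 to 0.237 in the 5 WT libraries. All 12 choroid plexus markers were higher in both TAU MOL libraries than in both TAU VEH libraries as well. The same held for all 5 interneuron markers (median log2 fold change 0.16, summed level 737 to 818 CPM against 643 to 675) and all 4 subicular markers (0.43, 50.5 to 58.2 CPM against 43.3 to 44.8), and all 5 neocortical markers were positive (0.24, 117 to 123 CPM against 97.3 to 109.8). DESeq2 called 1 choroid plexus and 1 thalamic marker higher, whereas edgeR called no gene of the whole table here. The part of these lists in the values of the CA3 genes was not tested.

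**Figure D5:**
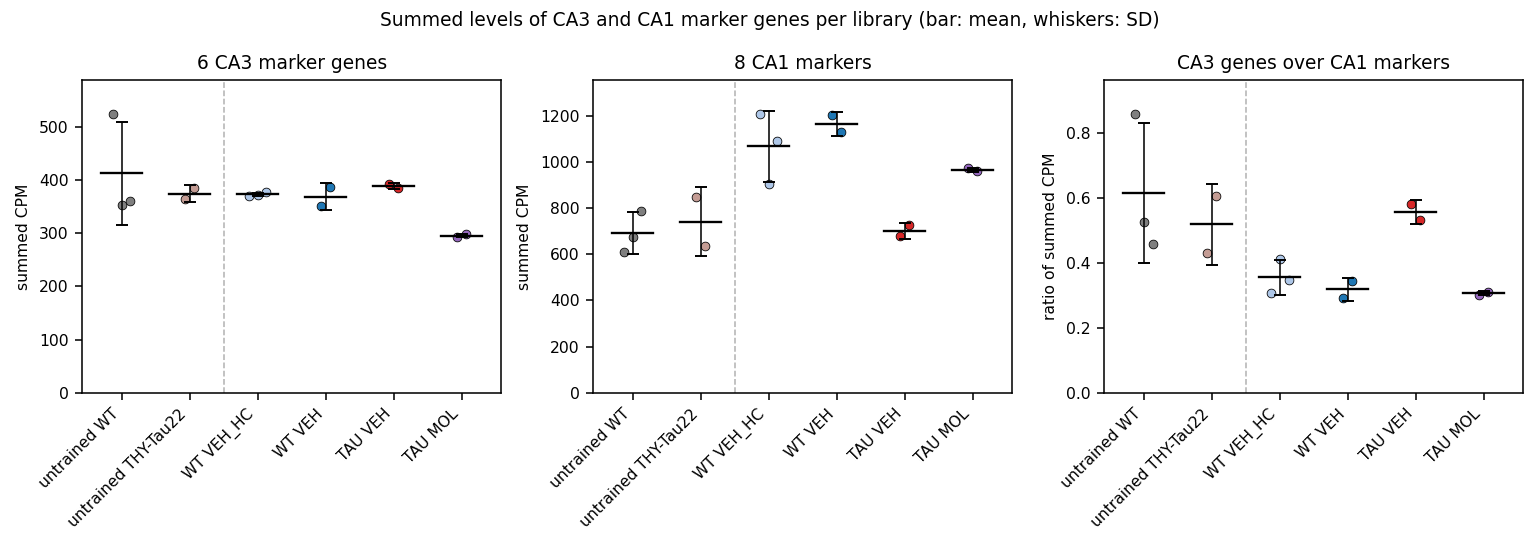
Summed CPM of the 6 CA3 genes (left), of 8 CA1 markers (middle) and their ratio (right) in each library (points) by group (horizontal axis), with means as bars and SD as whiskers. In the learning experiment the ratio is 0.531 and 0.582 in the 2 TAU VEH libraries and between 0.293 and 0.411 in the other 7.

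TAU MOL was finally set beside trained WT mice. Rgs14, Homer3 and Bok fell, 3 of the 9 genes, beside 5.63% of all genes (0.612% higher and 5.02% lower). Bok measured 164 and 175 CPM in WT VEH and 118 and 121 in TAU MOL (log2 fold change -0.51 ± 0.07, 95% interval -0.66 to -0.36, adjusted p = 0.00993 by edgeR). Rgs14 measured 183 and 192 CPM in WT VEH and 133 and 137 in TAU MOL (-0.47 ± 0.10, adjusted p = 0.0193). Homer3 measured 61.3 and 69.6 CPM in WT VEH and 52.2 and 51.9 in TAU MOL (-0.33 ± 0.08, adjusted p = 0.0316). DESeq2 called the same 3 genes lower, beside 6.3% of all genes. These are the GC-rich members, and none passed after the GC correction, which gave log2 fold changes of -0.30 for Bok, -0.32 for Rgs14 and -0.15 for Homer3 (adjusted p = 0.0826, 0.224 and 0.494). With library size alone, 757 genes were called higher and 326 lower, against 103 and 844 with TMM, and Bok alone of the 3 was still called. The adjusted p rose above 0.05 for each of them when any 1 of the 4 libraries was left out, to between 0.0632 and 0.104 for Bok, 0.0919 and 0.161 for Rgs14, and 0.0671 and 0.271 for Homer3.

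The remaining CA3 genes were also negative, between -0.25 for Socs2 and -0.09 for Cpne4, and overlapped between the groups. Cpne4, the gene that rose in TAU VEH, measured 105 and 109.7 CPM in TAU MOL against 109 and 119.9 in WT VEH (95% interval -0.25 to 0.07). Of the CA2 genes, Amigo2 was lower in both TAU MOL libraries than in both WT VEH libraries (-0.17, adjusted p = 0.473), a separation shown by 26.9% of all genes, and Pcp4 was positive (0.21, 95% interval -0.18 to 0.61). None of the other CA2 and CA3 markers was differentially expressed by edgeR, and DESeq2 called Necab2 and Spock1 lower. Other lists moved in TAU MOL against WT VEH too. All 12 choroid plexus markers had negative log2 fold changes (median -1.37), and 7 of them fell by edgeR and 1 by DESeq2. Of the 8 CA1 markers 7 were negative and 2 fell (median -0.16). All 4 endothelial markers were negative and 1 fell (median -0.46, summed level 93.4 to 109.7 CPM in TAU MOL against 130.0 to 140 in WT VEH), and 1 of 5 neocortical markers fell. Of 4 astrocyte markers 1 rose (summed level 983 to 1106 CPM against 735 to 794), as did 1 of 8 dentate gyrus markers (2 by DESeq2), and DESeq2 called 1 interneuron marker higher. The part of these lists in the values of the CA2 and CA3 genes was not tested. The 3 comparisons of trained mice share their libraries, so that their values do not support each other.

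Whether the genotype difference of the trained mice differed from that of the untrained mice was tested over all 14 libraries as the difference between the 2 genotype differences. None of the 9 genes passed with edgeR or DESeq2, beside 0.129% of 17026 genes with edgeR and 0.711% with DESeq2. Unadjusted p was under 0.05 for Pcp4 (0.62 ± 0.24, adjusted p = 0.542 by edgeR) and Cpne4 (0.42 ± 0.16, adjusted p = 0.523), against 7.78% of all genes. The differences of the 6 CA3 genes were between 0.13 and 0.42, beside a median of 0.04 over all genes. Their sign rested on single libraries for 3 of them. Homer3 was at -0.02 without untrained WT replicate 1 and -0.01 without untrained THY-Tau22 replicate 2, Bok at -0.16 without untrained WT replicate 1, and Socs2 at -0.08 without untrained THY-Tau22 replicate 1 and -0.05 without WT VEH replicate 1. Training, injection and the experiment itself cannot be told apart here.

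Genes with the most similar profile were sought over the 9 learning libraries by the root mean square difference of centred log2 CPM, among genes of at least 5 CPM on average and an SD within 1.5 times that of the member. For Homer3 these were Npy2r, a neuropeptide Y receptor, and Myo5b, a myosin motor (0.0691 and 0.0753). For Cpne4 they were Il16 and Ywhah (0.0586 and 0.0597), for Prss35 Lpl and Kcnq5 (0.0857 and 0.0877), and for Bok Hes1 and Ccdc74a (0.0728 and 0.0825). Iyd was nearest to Cd109 and Cmya5 (0.103 and 0.132) and Socs2 to Adamts9 and Lsm11 (0.0960 and 0.101). Among the CA2 genes, Amigo2 was nearest to Zfp954 and Pno1 (0.0731 and 0.0742), Rgs14 to Fbxl15 and Npdc1 (0.0707 and 0.0755), and Pcp4 to 2810025M15Rik and 1110001A16Rik (0.0910 and 0.105). No member was among the 2 nearest genes of another when between 3588 and 6743 genes were compared for each.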

How the data were processed

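RNA-seq of the dorsal hippocampus was analysed in 14 libraries of 6 groups. Poly-A libraries without strand marking were sequenced as single-end reads of 50 bases. The authors aligned them to mm9 with TopHat2 2.0.10 and Bowtie2 2.1.0 and counted reads on genes with HTSeq 0.5.4p3. They deposited raw counts, which were used for all tests, and beside them a normalized signal, the counts divided by a factor per library, which the authors made with DESeq2 and which was only inspected. The learning table held 138 lines without values, which were left out. Groups and replicates came from the sample labels.

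Counts were tested with edgeR 4.0.16 in R 4.3.3 (quasi-likelihood F test, TMM, filterByExpr, Benjamini-Hochberg over all genes), with the untrained libraries alone, the 9 learning libraries in 1 fit, and all 14 for the interaction. Calls required a log2 fold change beyond 0.2 in size and an adjusted p below 0.05. Alternatives were DESeq2 1.42.0 and its size factors, library size, other filters, only the groups compared, correction for GC content and length (loess, span 0.3, GENCODE annotation of mm9), the replicate number as a block, and leaving out each library. Tests were tried on simulated counts. Intervals are 95% intervals from edgeR. CPM carry TMM scaling, and RPKM divide them by merged exon length. Python 3.11.15 was used for tables.

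All members were named. The naming rule for list genes was to be called in the comparison described or highest per length. It was followed in full for the other CA2 and CA3 markers, with Coch named outside it, and genes of the remaining lists are mostly given as counts. A CA1 marker is not reported here by name. The members and lists were chosen with earlier results of these data known.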

Additional observations from a re-analysis of the deposited data

How the results depend on the processing

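The 9 genes were recomputed under each alternative, which gave 801 log2 fold changes beside those reported. Of these, 25 lost the call, 18 gained it and the others stayed on the same side of the threshold. The sign differed in 44, none of them called in either fit. The 1 value whose sign turned with an unadjusted p under 0.05 was Bok in TAU VEH against WT VEH, at 0.13 after the GC and length correction, with and without the replicate number as a block. In TAU VEH against WT VEH, 1 of the 9 genes was called as reported, 2 with DESeq2, 2 in a fit of only the groups compared, 2 without a filter on low counts and 3 with library size alone, beside 2423, 2493, 3399, 2872 and 3598 over all genes. In TAU MOL against TAU VEH, 0 were called as reported, 3 with DESeq2, 2 with only the groups compared and 5 without the filter, beside 0, 56, 60 and 233 over all genes. In TAU MOL against WT VEH, 3 were called as reported, 1 with library size alone, 0 after the GC correction and 1 after it with the block, beside 947, 1083, 31 and 152 over all genes. Between untrained mice, all genes called numbered 4 as reported, 40 with DESeq2 and 125 without the filter. Leaving out 1 library left 0 to 1 genes called for training, 0 to 1 for TAU VEH against WT VEH and 0 to 0 for TAU MOL against WT VEH. A group then left with 1 library is assumed to vary like the others. With library size alone the median of all genes was 0.15 in TAU VEH against WT VEH and 0.12 in TAU MOL against WT VEH, against 0.00 in both as reported, and 0.13 in the difference of genotype differences, against 0.04. Except for that scaling and the GC correction, whose construction changes the level of GC-rich genes, the cause of these changes was not tested.

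Groups share replicate numbers, but the labels do not say that a number marks a shared animal or day. Deviations of same-numbered libraries correlated between -0.16 and 0.24 across genes, so that the numbers were not taken as pairs. With the replicate number as a block, 2 of the 9 genes were called in TAU VEH against WT VEH, Cpne4 higher and Rgs14 lower, against 1 without it. Over all genes the block moved the calls from 2423 to 2794 in that comparison, from 1413 to 3000 for training and from 4 to 37 between untrained mice.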
